A study of Mus musculus with 2 samples.

Results

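The replication-dependent histone genes are the clustered, multi-copy genes that supply histone protein for new chromatin. In the deposited counts table they were taken as all symbols that begin with Hist1h, Hist2h, Hist3h or Hist4h, which gave 70 genes. Of these, 55 had at least 10 counts summed over the 2 libraries and were kept, among 17356 genes in the table of 46095 that passed the same filter. The kept genes comprised 5 linker histone H1 genes, 13 H2A genes, 14 H2B genes, 10 H3 genes and 13 H4 genes. Of the kept genes, 46 belong to the Hist1 cluster on chromosome 13, 8 to the Hist2 cluster on chromosome 3 and 1 (Hist4h4) lies alone on chromosome 6.

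The cells were C3H10 (C3H/10T1/2), a mouse embryonic mesenchymal line that can be driven into adipocytes and that the labels list under strain C57BL/6. Cells in both groups received 100 nM of an antisense oligonucleotide (ASO), which directs cleavage of the RNA it pairs with, before adipogenic induction with isobutyl-1-methylxanthine, dexamethasone, troglitazone and insulin for 2 days and culture in insulin medium to differentiation day 6. The ASO was a negative control in the control library and was directed against the long noncoding RNA MALAT1 in the MALAT1-knockdown library. Each group is a single culture of 1 line with 1 library, and the sources used here do not name the MALAT1 ASO behind the sequenced library.

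Core histones H2A, H2B, H3 and H4 form the protein spool of the nucleosome, and H1 binds the DNA where it enters and leaves. Their main genes are transcribed mostly in S phase, when DNA is copied, and most of the resulting mRNAs end in a short stem-loop instead of a poly(A) tail. The stem-loop is bound by SLBP, which directs 3′ end processing, export, translation and rapid decay of histone mRNA at the end of S phase. Cells that have stopped dividing also make some of these mRNAs as polyadenylated forms and use replication-independent variant histones.

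The stem-loop is the feature that sets most of these mRNAs apart, so it was looked up in the GENCODE M21 transcripts of GRCm38. The search took a 6-base stem beginning GG and ending T, a 4-base loop beginning T, and the complementary arm, within the bases after the stop codon. It was found in 46 of the 70 genes. Of 21857 other coding genes, 99 held a match (0.453%) anywhere in the longest annotated transcript, a wider stretch than was searched in the histone genes. The distance from stop codon to stem ranged from 21 to 58 bases with a median of 31. Of the genes without a match, 18 have no annotated bases after a stop codon that could hold one, and 6 have an annotated end without it (Hist1h1a, Hist1h2bc, Hist1h2bq, Hist1h2br, Hist2h2be and Hist2h3b). The 18 include the annotated pseudogenes Hist1h2aj, Hist1h2al and Hist3h2bb-ps, which have no annotated coding sequence and so could not be searched. The stem-loops of the most abundant gene of each class that holds one, and of Hist1h3e and Hist1h4j, the H3 and H4 genes called lower below, are printed here with 5 flanking bases on each side. Capitals mark the paired arms, the lower case bases between them are the loop, and the coordinates after each name are those of stem and loop alone on GRCm38, with the strand in brackets.
Hist1h1c, chr13:23739512-23739527 (+): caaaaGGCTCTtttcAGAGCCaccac
Hist2h2aa1, chr3:96246032-96246047 (+): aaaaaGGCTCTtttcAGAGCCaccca
Hist1h2be, chr13:23585531-23585546 (-): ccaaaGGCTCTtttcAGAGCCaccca
Hist1h3d, chr13:23576244-23576259 (+): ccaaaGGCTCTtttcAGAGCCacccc
Hist1h3e, chr13:23561903-23561918 (-): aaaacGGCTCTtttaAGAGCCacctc
Hist1h4i, chr13:22040966-22040981 (-): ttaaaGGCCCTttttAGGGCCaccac
Hist1h4j, chr13:21735437-21735452 (+): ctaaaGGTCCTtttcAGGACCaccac
All 34 stem-loops of the H1, H2A, H2B and H3 genes had the stem GGCTCT, whereas the 12 H4 stem-loops had GGCCCT or, in Hist1h4b and Hist1h4j, GGTCCT.

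The start regions also differ by class. RefSeq promoters of GRCm38.p6, from 250 bases before to 50 bases after the start, were matched for 62 of the 70 genes. CCAAT on either strand was present in 53 of 62 (85.5%), against 37.8% of 26963 other promoters. It was in every matched H1, H2A, H2B and H3 promoter but in 3 of 12 H4 promoters. TATAAA on the sense strand was present in 48.4% against 8.79% of other promoters. The octamer ATTTGCAT, the element read by Oct factors in H2B promoters, was found on either strand in 13 of 62 promoters, against 1.71% of other promoters, of which 7 were H2A and 6 were H2B promoters. AAACACA, the H1 box, was found on either strand in 9 (14.5% against 7.12%), including 5 of 6 H1 promoters. No motif searched contains another. Promoter windows of some genes that lie head to head overlap, among them Hist1h2ae and Hist1h2bg. A motif searched on either strand can therefore count for both genes from the same site. For an H1 gene, for an H2A gene that faces the most abundant H2B gene, and for an H4 gene, the 150 bases before the start are printed 5′ to 3′ in the direction of the gene, with every match in capitals.
Hist1h1c, chr13:23738657-23738806 (+): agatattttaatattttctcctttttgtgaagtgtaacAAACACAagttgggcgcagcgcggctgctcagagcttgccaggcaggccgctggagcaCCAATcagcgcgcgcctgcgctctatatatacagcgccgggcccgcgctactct
Hist1h2ac, chr13:23683960-23684109 (-): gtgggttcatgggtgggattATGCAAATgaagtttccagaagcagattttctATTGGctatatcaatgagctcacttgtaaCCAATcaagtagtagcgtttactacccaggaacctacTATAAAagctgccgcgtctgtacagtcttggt
Hist1h4i, chr13:22041363-22041512 (-): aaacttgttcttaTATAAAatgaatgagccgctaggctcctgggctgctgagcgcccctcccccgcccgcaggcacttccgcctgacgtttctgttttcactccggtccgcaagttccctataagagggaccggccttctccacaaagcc

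The gene bodies are near copies of each other, which bears on how reads were assigned. The first 60 coding bases of 5 H4 genes on GRCm38 show how little separates some of them; capitals mark bases that differ from Hist1h4i, the H4 gene with the most counts.
Hist1h4i, chr13:22041264-22041323 (-): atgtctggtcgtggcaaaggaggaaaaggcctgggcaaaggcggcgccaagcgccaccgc
Hist1h4n, chr13:21832099-21832158 (-): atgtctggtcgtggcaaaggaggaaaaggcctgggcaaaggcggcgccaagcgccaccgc
Hist1h4m, chr13:21811784-21811843 (+): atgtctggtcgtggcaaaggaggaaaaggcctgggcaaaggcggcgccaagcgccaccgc
Hist1h4h, chr13:23531115-23531174 (+): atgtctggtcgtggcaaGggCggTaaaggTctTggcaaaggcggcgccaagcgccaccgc
Hist1h4j, chr13:21735096-21735155 (+): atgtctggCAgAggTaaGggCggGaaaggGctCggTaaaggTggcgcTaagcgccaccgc
Over the whole coding length of 312 bases, Hist1h4n and Hist1h4m each differed from Hist1h4i at 10 positions, Hist1h4h at 13 and Hist1h4j at 20, and Hist1h4m and Hist1h4n were identical to each other. Of the 53 kept genes with an annotated coding sequence, 43 were at least 95% identical to another member and 8 were 100% identical. In the longest annotated transcript of each kept gene, 22 of 55 had under 50% of their 100-base windows unique among all M21 transcripts, and 4 (Hist2h2aa1, Hist2h2aa2, Hist2h2bb and Hist2h3c1) had none. How reads with several matches were counted is not given in the sources used here, so the values of single genes are uncertain where copies share sequence, and sums per class are given beside them.

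The control library held 58147539 counts and the MALAT1-knockdown library 61653549. Malat1 had 170402 counts in the control library against 45396 after knockdown, 24.7% of the control level. Of the markers of other cell types, those of leukocytes and skeletal muscle had 0 to 3 counts in each library, Epcam and Dazl were at 0 in both, Cdh5 had 0 and 1 counts, and Pecam1 (26 and 25 counts), Cdh1 (48 and 61) and Ddx4 (171 and 160) were low in both. All 6 adipocyte markers were lower in knockdown cells, from 151625 to 63240 counts for Fabp4, and all 5 mesenchymal stroma markers were higher, from 264064 to 328873 counts for Col1a2. Their part in the histone values was not tested.

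Histone mRNAs were lower in MALAT1-knockdown cells as a group. The 55 genes together had 22183 counts in the control library against 17199 after knockdown. After scaling of the libraries by TMM factors this was 384 and 277 CPM (counts scaled to library size), or 72.0% of the control level, with a log2 ratio of -0.47 (95% Clopper-Pearson interval -0.50 to -0.44, which covers counting error only). The log2 fold change, computed with a prior count of 0.5, was below 0 for 44 of the 55 genes, against 50.4% of all genes tested, and its median was -0.46, against -0.0029 over all genes tested. A gene was taken to differ beyond counting error at an adjusted p under 0.05 (two-sided exact binomial test, Benjamini-Hochberg adjustment over all 17356 genes). On this measure 29 of 55 histone genes were lower (52.7%), against 23.8% of all genes tested, and 0 were higher, against 24.2%. With the added condition that the log2 fold change be 1 or more in size, 6 histone genes were called lower, against 4.09% of all genes tested, and 0 were called higher, against 2.19%. With 1 library per group there is no replicate check: the test compares these libraries and not the conditions. edgeR's exact test was also run with an assumed biological coefficient of variation between cultures of 0.1, 0.2 or 0.4. At 0.1, 7 histone genes were lower and 3 (Hist1h2af, Hist1h3e and Hist1h4j) were called. At 0.2 and 0.4 both counts were 0, with 6 and 0 genes at an unadjusted p under 0.05. Over all 17356 genes, 1079 passed after adjustment in either direction at 0.1, 117 at 0.2 and 1 at 0.4. In bulk RNA, fewer cells that express a gene and less of its RNA per cell cannot be told apart.

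The shift was most even among the genes with the most counts. Of the 21 genes with a mean of at least 100 counts, 21 had a log2 fold change below 0, from -0.94 to -0.16. Of these, 18 (85.7%) were lower beyond counting error, against 23.8% of all genes tested. Among the 34 genes with fewer counts, 11 (32.4%) were lower beyond counting error, 11 had a log2 fold change above 0, and the values ran from -1.96 to 1.004. Counting error is larger at low counts, and the share over all genes with like counts was not taken. Hist1h1c and Hist1h2bc alone held 55.5% of all histone counts in control cells. Without these the log2 ratio of the summed counts was -0.44.

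**Figure D1:**
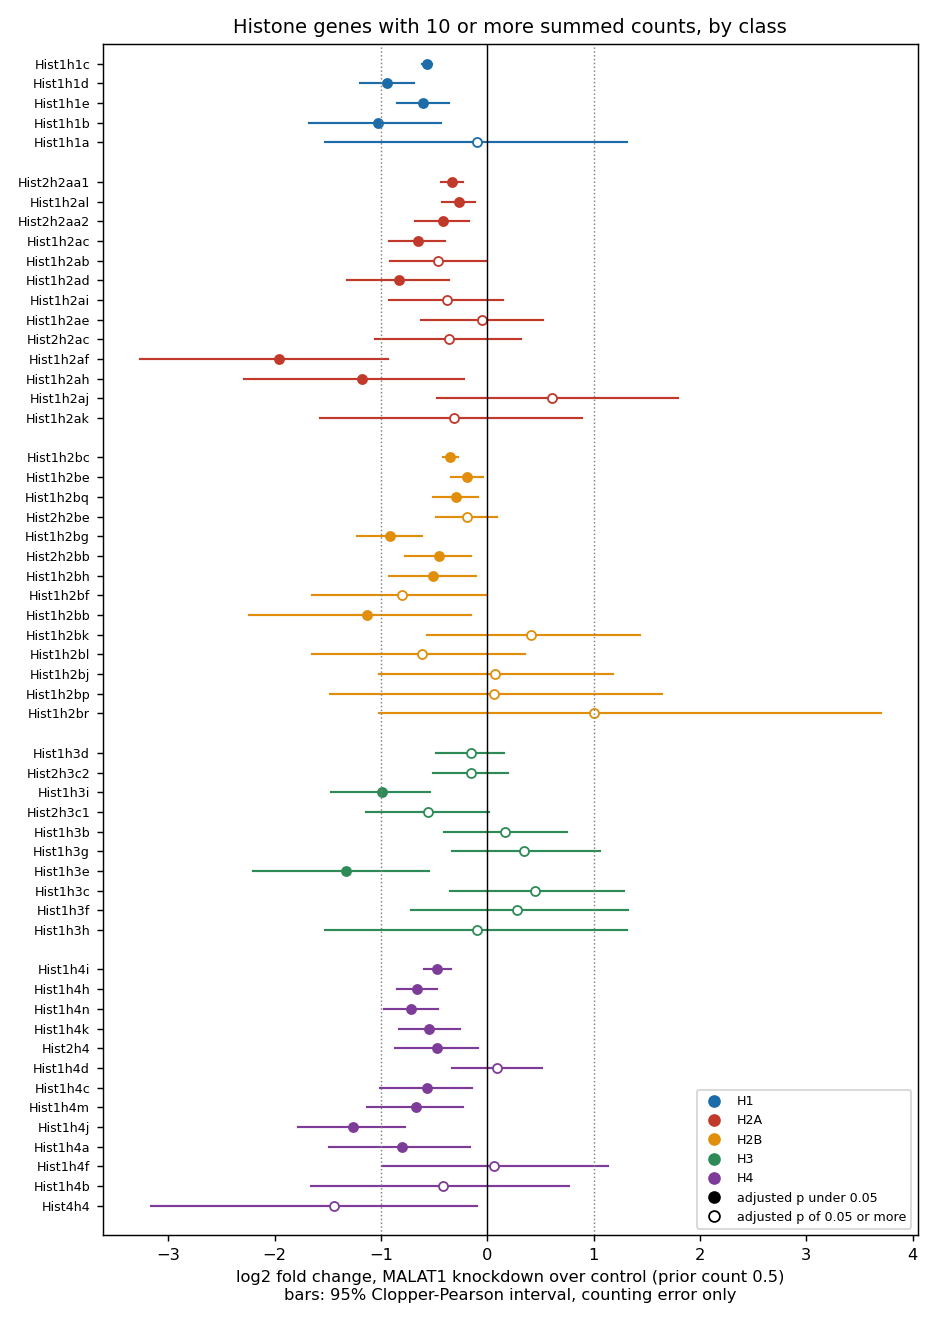
Log2 fold change of each of the 55 kept histone genes (x axis, MALAT1 knockdown over control), grouped by class and ordered within a class by summed counts, with bars for the 95% Clopper-Pearson interval and filled points for an adjusted p under 0.05. All 29 filled points lie left of 0, and the 11 genes to the right of 0 have intervals that include it.

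Linker histone H1 genes held 42.5% of the histone counts in control cells. Their summed level was 163 CPM in control cells and 109 CPM in knockdown cells, a log2 ratio of -0.59 (interval -0.63 to -0.54). Of 5 genes, 5 were below 0 and 4 (80%) were lower beyond counting error, against 23.8% of all genes tested. Hist1h1c, which encodes the subtype also called H1.2 and lies at chr13:23738808-23740367, had 8635 counts in the control library against 6261 after knockdown. This is -0.57 on the log2 scale (interval -0.62 to -0.52, adjusted p = 2.8e-125, exact binomial test). Hist1h1d, for the subtype H1.3, had 371 and 208 counts (log2 fold change -0.94, interval -1.19 to -0.69), which was the lowest among H1 genes with a mean of at least 100 counts. Hist1h1e, for H1.4, had 337 and 239 counts (log2 fold change -0.60, interval -0.85 to -0.36). It overlaps the annotated Hist1h2be transcript, so reads in the overlap could count for either. Hist1h1b, for H1.5, had 67 and 35 counts and was called lower, with a log2 change of -1.03 (interval -1.68 to -0.43). Hist1h1a, for H1.1, had 10 counts in each library, which leaves an interval from -1.53 to 1.31. The 4 subtypes with more than 20 summed counts therefore all lay on the same side of 0, and the intervals of Hist1h1c and Hist1h1d did not overlap.

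H2A genes were lower by a smaller amount. Their summed level was 59.6 CPM in control cells and 46.0 CPM in knockdown cells, a log2 ratio of -0.38 (interval -0.45 to -0.30). Beyond counting error, 7 of 13 genes (53.8%) were lower, against 23.8% of all genes tested. Hist2h2aa1 had 1635 and 1397 counts (log2 fold change -0.33, interval -0.44 to -0.23), and its coding copy Hist2h2aa2 had 290 and 233 counts. As reads could be split between these copies in any proportion, the sum is the firmer value: 1925 and 1630 counts, a log2 ratio of -0.35 (interval -0.44 to -0.25). Hist1h2al, with 769 and 686 counts and a log2 change of -0.27 (interval -0.42 to -0.12), is annotated as a processed pseudogene at chr13:51202727-51203065, away from the rest of the Hist1 cluster. Of its 100-base windows 80.8% were unique, and the rest were shared with other transcripts, Hist2h2aa1 among them. Of its 50-base windows 32.4% were unique. Part of its counts may therefore belong to the Hist2h2aa copies. Hist1h2ac, at chr13:23681467-23683948, had 299 and 204 counts and the lowest log2 fold change of the H2A genes with a mean of at least 100 counts, -0.66 (interval -0.92 to -0.40).

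The largest H2A differences were in genes with few counts. Hist1h2af had 34 counts in the control library against 9 after knockdown, and was called lower at a log2 change of -1.96 (interval -3.27 to -0.93). Hist1h2ah had 28 and 13 counts and was called lower at -1.18 (interval -2.29 to -0.22, adjusted p = 0.032, exact binomial test). Few of their 100-base windows were unique (20.7% in Hist1h2af and 10.5% in Hist1h2ah), and neither has enough annotated bases after its stop codon to hold a stem-loop. Hist1h2ad, with 101 and 61 counts, was also lower beyond counting error. Hist1h2ab (96 and 75 counts), Hist1h2ai (68 and 56), Hist1h2ae (52 and 54), Hist2h2ac (42 and 35) and Hist1h2ak (14 and 12) did not pass the test. Hist1h2aj, an annotated pseudogene with 12 and 20 counts, was the 1 H2A gene above 0, with an interval from -0.47 to 1.80.

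H2B genes had a summed level of 99.2 CPM in control cells and 78.1 CPM in knockdown cells, a log2 ratio of -0.34 (interval -0.40 to -0.29). Beyond counting error, 7 of 14 (50%) were lower, against 23.8% of all genes tested. Hist1h2bc, whose annotated end holds no stem-loop, had 3680 and 3115 counts (log2 fold change -0.35, interval -0.42 to -0.28, adjusted p = 5.8e-22, exact binomial test). Hist1h2be had 734 and 692 counts and the log2 fold change nearest to 0 of the H2B genes with a mean of at least 100 counts, -0.19 (interval -0.34 to -0.04, adjusted p = 0.029, exact binomial test). Hist1h2bq had 396 and 347 counts (log2 fold change -0.30, interval -0.51 to -0.09). Its coding copy Hist1h2br had 3 and 7 counts, and the pair together had 399 and 354 counts, a log2 ratio of -0.28 (interval -0.49 to -0.07). Hist1h2bg lay farthest from 0 of the well counted H2B genes, with 253 and 144 counts and a log2 change of -0.92 (interval -1.22 to -0.62). The intervals of Hist1h2bg and Hist1h2bc did not overlap, so H2B genes differed among themselves by more than counting error, apart from any reads the copies share.

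Hist1h2bb was the H2B gene called lower, with 27 and 13 counts and a log2 change of -1.13 (interval -2.24 to -0.16, adjusted p = 0.045, exact binomial test). Hist2h2bb (198 and 155 counts) and Hist1h2bh (119 and 90) were also lower beyond counting error. Hist2h2be, with 216 and 203 counts and a transcript in which every 100-base window was unique, did not pass the test (log2 fold change -0.20, interval -0.48 to 0.09). Hist1h2bk (16 and 23 counts), Hist1h2bj (15 and 17), Hist1h2bp (8 and 9) and Hist1h2br were above 0, and Hist1h2bf (36 and 22) and Hist1h2bl (23 and 16) below it, none of them past the test.

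H3 genes were the least abundant class and the most mixed. Their summed level was 11.5 CPM in control cells and 9.53 CPM in knockdown cells, a log2 ratio of -0.27 (interval -0.43 to -0.10). Only 2 of 10 genes (20%) were lower beyond counting error, near the 23.8% of all genes tested, and the median log2 fold change was -0.13. Hist1h3d had 168 and 162 counts (log2 fold change -0.16, interval -0.48 to 0.16), and Hist2h3c2 had 141 and 136 counts, also -0.16 (interval -0.51 to 0.19). Neither passed the test. The Hist2h3 copies Hist2h3b, Hist2h3c1 and Hist2h3c2 summed to 206 and 183 counts, with an interval of the log2 ratio from -0.57 to 0.02 that includes 0. The 2 that passed were Hist1h3i, with 115 and 62 counts and a log2 change of -0.99 (interval -1.47 to -0.54), and Hist1h3e, with 45 and 19 counts, which was called lower at -1.33 (interval -2.21 to -0.55). Hist1h3b (48 and 58 counts), Hist1h3g (32 and 44), Hist1h3c (23 and 34) and Hist1h3f (16 and 21) had log2 fold changes from 0.16 to 0.45, all with intervals that include 0. Hist2h3c1 (63 and 46 counts) and Hist1h3h (10 in each library) did not pass either. The stem-loop and flanks of Hist1h3f are those printed for Hist1h3e, and their intervals (-0.72 to 1.32 for Hist1h3f) overlapped.

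H4 genes had a summed level of 50.9 CPM in control cells and 34.5 CPM in knockdown cells, a log2 ratio of -0.56 (interval -0.64 to -0.48). Beyond counting error, 9 of 13 (69.2%) were lower, against 23.8% of all genes tested. The intervals of the H1 and H4 sums lay below those of the H2A, H2B and H3 sums without overlap. Hist1h4i, at chr13:22040636-22041362, had 1153 and 895 counts (log2 fold change -0.47, interval -0.60 to -0.34, adjusted p = 1.5e-12, exact binomial test). Hist1h4h had 575 and 391 counts (log2 fold change -0.66, interval -0.85 to -0.48). Hist1h4n had 324 and 212 counts (log2 fold change -0.72, interval -0.98 to -0.46), and with its coding copy Hist1h4m the sum was 431 and 284 counts, a log2 ratio of -0.71 (interval -0.93 to -0.49). Hist1h4j, which carries 1 of the GGTCCT stems, had 112 and 50 counts and was called lower at -1.26 (interval -1.78 to -0.78, adjusted p = 5.4e-07, exact binomial test). Hist1h4b, the other gene with this stem, had 15 and 12 counts and did not pass.

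Hist1h4k (240 and 177 counts), Hist2h4 (128 and 99), Hist1h4c (109 and 79), Hist1h4m (107 and 72) and Hist1h4a (54 and 33) were also lower beyond counting error, with log2 fold changes from -0.81 to -0.48. Hist1h4d was above 0, with 89 and 102 counts (log2 fold change 0.09, interval -0.33 to 0.52) in a transcript whose 100-base windows were all unique. Its interval overlapped those of Hist1h4k, Hist2h4, Hist1h4c, Hist1h4m and Hist1h4a. It did not overlap those of Hist1h4i, Hist1h4h, Hist1h4n and Hist1h4j. Hist1h4f had 16 and 18 counts. Hist4h4, the single H4 gene on chromosome 6, had 16 and 6 counts (log2 fold change -1.44, interval -3.16 to -0.09) that did not pass after adjustment (adjusted p = 0.069, exact binomial test).

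**Figure D2:**
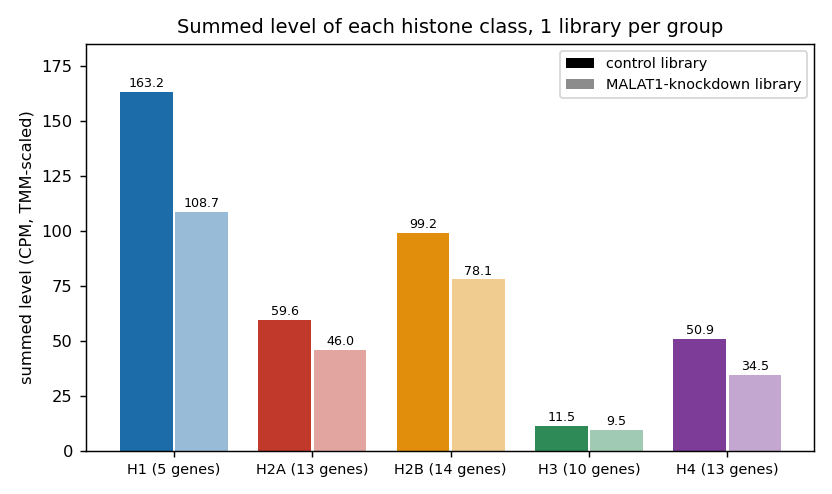
Summed level of each histone class (y axis, TMM-scaled CPM) in the control library (dark bars) and the MALAT1-knockdown library (light bars), with 1 library per group and no error bar. H1 went from 163 to 109 CPM and H4 from 50.9 to 34.5 CPM, and the light bar is the shorter of each pair in all 5 classes.

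Of the 15 genes under 10 summed counts, 4 (Hist1h2aa, Hist1h2ba, Hist3h2a and Hist3h2ba) had 0 counts in both libraries, which allows up to 3 counts, or 0.0520 CPM in control and 0.0483 CPM in knockdown cells. The others were Hist1h1t, the testis linker histone, with 7 and 1 counts, and Hist1h2ag, Hist1h2an, Hist1h2ao, Hist1h2ap, Hist1h2bm, Hist1h2bn, Hist1h3a, Hist2h2ab, Hist2h3b and Hist3h2bb-ps. Those 11 genes summed to 31 counts in the control library against 20 after knockdown, with an interval of the log2 ratio from -1.63 to 0.12.

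Per length of the longest annotated transcript, Hist1h1c had the highest level, 95.9 CPM per kb in control cells and 64.6 in knockdown cells. Hist1h2bc followed with 55.2 and 43.4 CPM per kb, Hist2h2aa1 with 48.4 and 38.4, Hist1h2al with 39.3 and 32.6, Hist1h4i with 27.5 and 19.8, and Hist1h4h with 21.2 and 13.4. These 6 genes had the same order of level per length in both libraries. All 55 genes together took 0.0381% of the control counts and 0.0279% of the knockdown counts.

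Summed counts of both larger clusters were lower, those of Hist1 by more. The Hist1 cluster had 19454 and 14889 counts, a log2 ratio of -0.49 (interval -0.52 to -0.46). The Hist2 cluster had 2713 and 2304 counts, a log2 ratio of -0.34 (interval -0.42 to -0.26), and these intervals did not overlap. Hist1h1c alone held 8635 and 6261 of the Hist1 counts, at a log2 fold change of -0.57, and Hist2 holds no H1 gene. The difference between the sums thus follows that gene in part, and the clusters were not compared without it. Within Hist1, the genes of the block at lower coordinates had a log2 ratio of -0.52 and those of the block at higher coordinates -0.50, leaving Hist1h2al out of both. Many H2A and H2B genes are paired head to head. Of 14 such pairs with 172 to 305 bases between the starts, 6 had both genes tested, and in 5 of them both were below 0. In the pair Hist1h2ac and Hist1h2bc the log2 fold changes were -0.66 and -0.35, and in the pair Hist1h2ad and Hist1h2bf -0.83 and -0.80. In the pair Hist1h2ae and Hist1h2bg they were -0.05 and -0.92, with intervals that overlapped by little (-0.63 to 0.53 and -1.22 to -0.62). In the pair Hist1h2ah and Hist1h2bk they were -1.18 and 0.41.

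**Figure D3:**
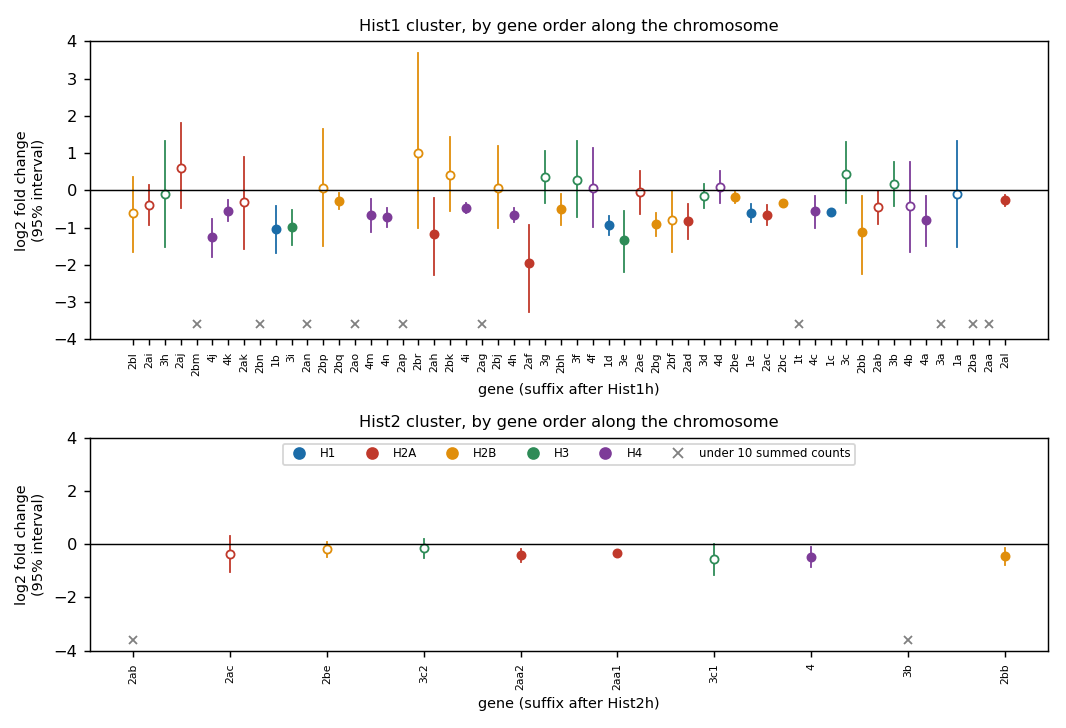
Log2 fold change (y axis, with 95% Clopper-Pearson intervals) of the histone genes of the Hist1 cluster (upper panel) and the Hist2 cluster (lower panel) in their order along the chromosome, colored by class, with filled points for an adjusted p under 0.05 and crosses for genes under 10 summed counts. Filled points occur along the Hist1 row and in the later part of the Hist2 row, with log2 ratios of the summed counts of -0.49 for Hist1 and -0.34 for Hist2.

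Other genes lie between the histone genes. Of 105 such genes in the table, 11 were tested, 2 were lower beyond counting error, 2 were higher and the median log2 fold change was 0.13. These counts are near the shares over all genes tested, 23.8% lower and 24.2% higher. The lower genes were Hfe, which encodes a regulator of iron uptake, with 138 and 96 counts (log2 fold change -0.63, interval -1.02 to -0.24), and Gm20627, a processed transcript within Hist2 with 505 and 370 counts (log2 fold change -0.55, interval -0.75 to -0.36). The higher genes were the zinc finger genes Zfp322a (1819 and 2356 counts, log2 fold change 0.27) and Zfp184 (137 and 196 counts, 0.41).

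Sorting the histone genes by the form of their annotated 3′ end gave sums on the same side of 0. The 20 genes whose annotated transcript runs over 100 bases past the stem-loop had 12894 and 9540 counts, a log2 ratio of -0.54 (interval -0.58 to -0.50). The 18 genes whose transcript ends within 100 bases of it had 3406 and 2726 counts, a log2 ratio of -0.43 (interval -0.50 to -0.35). For the 5 genes with an annotated end but no stem-loop the sums were 4305 and 3682 counts, a log2 ratio of -0.33 (interval -0.40 to -0.27), and for the 12 genes without annotated bases to hold it 1578 and 1251 counts, a log2 ratio of -0.44. Hist1h1c is most of the first sum and Hist1h2bc most of the third, so these values follow those genes. Of the last sum, 769 and 686 counts were those of Hist1h2al, an annotated pseudogene without a coding sequence in which to place a stop codon. Gene counts do not show which end form the RNA had.

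Genes with at least 50% unique windows and the rest gave similar sums. The 33 former had 18220 and 14002 counts, a log2 ratio of -0.49 (interval -0.52 to -0.45), with 18 (54.5%) lower beyond counting error. The 22 latter had 3963 and 3197 counts, a log2 ratio of -0.42 (interval -0.48 to -0.35), with 11 (50%) lower. Over all genes tested the share was 23.8%.

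Genes that make and use histone mRNA were mostly higher or near 0. Of 17 genes for histone mRNA production, 0 were lower and 7 were higher beyond counting error, against 23.8% and 24.2% of all genes tested, and the median log2 fold change was 0.10. Slbp, the stem-loop binding protein, had 2294 counts in the control library against 3450 after knockdown (log2 fold change 0.48, interval 0.41 to 0.56, adjusted p = 1.3e-34, exact binomial test). Npat, the coactivator of histone gene transcription, had 1947 and 2577 counts (log2 fold change 0.30, interval 0.21 to 0.38), and Casp8ap2, the processing factor FLASH, had 2104 and 2836 counts, 0.32 (interval 0.24 to 0.41). Slbp was thus higher in the library in which 29 of the 55 mRNAs were lower. Of 8 genes for histone mRNA turnover, 6 were higher and 1 was lower, against the same shares, with a median of 0.14. Eri1, the exonuclease that trims the stem-loop end, had 2151 and 2712 counts (0.23, interval 0.15 to 0.31), Exosc10, a nuclease of the nuclear exosome, 878 and 1078 (0.19, interval 0.06 to 0.32), and Lsm1, of the ring that binds the oligouridylated end, 1634 and 1455 (-0.27, interval -0.38 to -0.17).

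Histone chaperones were mostly higher: of 22 genes, 16 were higher and 1 (Nap1l4) was lower beyond counting error, again against 24.2% and 23.8%, with a median of 0.27. Among those that passed the test with a mean of at least 100 counts, the genes farthest from 0 were Chaf1b and Chaf1a, subunits of the CAF-1 complex that loads H3 and H4 behind the replication fork, with 702 and 1171 counts (log2 fold change 0.63, interval 0.50 to 0.77) and 2008 and 3159 counts (0.55, interval 0.47 to 0.63), and Asf1b, which hands H3 and H4 to it, with 1054 and 1712 counts (0.59, interval 0.48 to 0.71). Genes of DNA replication and S phase were higher almost throughout: of 28 genes, 27 were higher beyond counting error (against the 24.2% of all genes) and 0 lower, and the median was 0.57. The exception was Cdc45, with 14 and 10 counts, which did not pass. Mcm5 and Mcm3, of the replicative helicase, had 2399 and 4906 counts (0.93, interval 0.855 to 0.997) and 3444 and 6541 counts (0.82, interval 0.76 to 0.88), and Uhrf1, which keeps DNA methylation through replication, 3891 and 7536 (0.85, interval 0.79 to 0.90). In these lists 0 genes were called. The medians of the histone genes and of the S phase genes thus lay on opposite sides of 0, at -0.46 and 0.57.

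Replication-independent histone variants were not lower as a group: of 11 genes, 6 were higher and 2 lower beyond counting error (24.2% and 23.8% over all genes), with a median of 0.08. Cenpa, the H3 variant of centromeres, had 971 and 1603 counts (log2 fold change 0.62, interval 0.50 to 0.73). H2afz, for H2A.Z, had 330 and 505 counts (0.51, interval 0.30 to 0.71), and H2afx, for H2A.X, 3388 and 4554 counts (0.32, interval 0.26 to 0.38). H1f0, the linker histone of resting and differentiated cells, had 22743 and 21468 counts (-0.19, interval -0.22 to -0.16). H3f3b and H3f3a, which both encode H3.3, had 34774 and 34465 counts (-0.12, interval -0.14 to -0.10) and 15525 and 16308 counts (-0.04, interval -0.067 to -0.0038, not past the test). The lower variant genes were thus H1f0 and H3f3b, each nearer to 0 than the sum of the replication-dependent genes of its class, -0.59 for H1 and -0.27 for H3. For H3 the interval of the sum (-0.43 to -0.10) overlapped that of H3f3b, and the median over the H3 genes was -0.13.

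Histone mRNAs without a poly(A) tail are seen in libraries made by rRNA removal, so other RNAs without a tail were set beside them. Of 17 such RNAs, 7 were tested, 0 were lower and 1 was higher beyond counting error (23.8% and 24.2% over all genes), with a median of -0.03. Rn7sk, the RNA of a transcription elongation regulator, had 98 and 92 counts (interval of the log2 fold change -0.62 to 0.23), and Snora73a and Snora73b, small nucleolar RNAs, had 93 and 86 and 73 and 77 counts. Rpph1, the RNA of RNase P, had 2 and 20 counts and was called higher. These RNAs had few counts, and for 6 of the 7 tested the interval held both 0 and the median of the histone genes, -0.46.

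**Figure D4:**
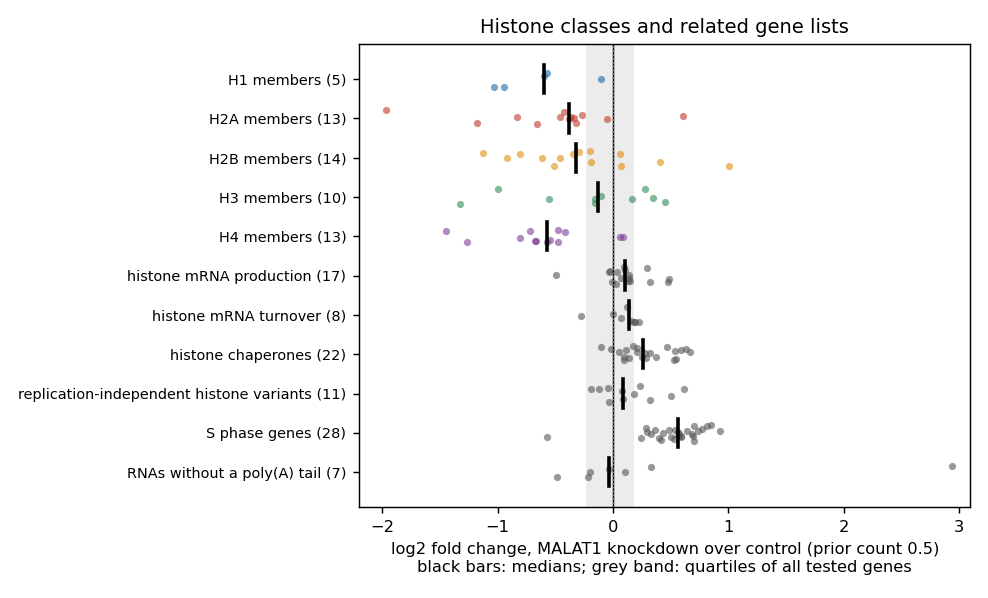
Log2 fold change (x axis, MALAT1 knockdown over control) of each tested gene in the 5 histone classes and 6 related lists, with the number of genes in brackets, black bars for medians and a grey band for the quartiles of all tested genes. The medians of the 5 classes lie left of 0 and that of the S phase genes at 0.57.

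The histone transcripts are short and rich in G and C, with a median annotated length of 618 bases against 3045 over all tested genes and a median GC content of 56.2% against 49.6%. The 500 tested genes nearest in length to each member had medians from -0.10 to 0.06, and the 500 nearest in GC content from -0.05 to 0.07, over the 88.2% of tested genes with a value. With the trend in length taken off, the log2 ratio of all 55 genes was -0.42 in place of -0.47.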

How the data were processed

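RNA-seq libraries of rRNA-depleted total RNA were made with a directional kit, 1 per group. The authors deposited raw counts of reads per gene symbol. The submitters' processing notes name HISAT2 and GRCm38; the counting tool, annotation, strand setting and the treatment of reads with several matches are not given in the sources used here. Each column was matched to its library by title.

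For genes with at least 10 summed counts, a two-sided exact binomial test set the counts against TMM-scaled library sizes (edgeR 4.0.16 in R 4.3.3, scipy 1.17.1 in Python 3.11.15), with Benjamini-Hochberg adjustment over all 17356 genes, since 1 library per group allows neither edgeR's quasi-likelihood test nor a DESeq2 fit. Called genes had an adjusted p under 0.05 and moved by 1 or more on the log2 scale (prior count 0.5). Class sums have 95% Clopper-Pearson intervals and no p. Intervals and floors (3 counts) cover counting error only. The test was checked on simulated counts with counting error only, so that check does not cover the spread between cultures.

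The members and gene lists were chosen with earlier results of these data known. Named genes were, per class, the 3 with the most counts, the highest and lowest log2 fold change at a mean of at least 100 counts, and those called; per list, those called, the 3 farthest from 0 that passed the test at that mean, and Slbp, Npat, H2afx, H2afz, H3f3a and H3f3b. The further genes named complete the account of the members. Stem-loops, coding sequences and gene positions came from GENCODE M21 (all 70 symbols matched) and promoters from RefSeq. Alternatives were other scalings, filters, prior counts, fold thresholds and exact tests with a preset variation between cultures, subsets of members, and trends with length and GC content.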

Additional observations from a re-analysis of the deposited data

How the results depend on the processing

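With 1 library per group, the counts of histone genes past a threshold depended on the assumed spread between cultures. In place of the 29 genes lower beyond counting error, edgeR's exact test with the biological coefficient of variation set to 0.1 gave 7 and with 0.2 or 0.4 it gave 0; at an unadjusted p under 0.05 it gave 20, 6 and 0. In place of the 6 called, it gave 3 at 0.1 (Hist1h2af, Hist1h3e and Hist1h4j) and 0 at 0.2 and 0.4. Over all 17356 genes, 1079 passed it after adjustment in either direction at 0.1, 117 at 0.2 and 1 at 0.4. Dividing all counts by 4, chosen after seeing the data, gave 9 lower and 1 called (Hist1h4j). With no fold threshold 29 genes were called, and with a 1.5-fold threshold 16. Shares over all genes were not counted for the calls at a preset variation, the division by 4 or the 1.5-fold threshold. Restriction to the 33 members with mostly unique windows left 18 lower, from fewer genes tested. Other scalings, filters and prior counts left these counts within 1.5 times.

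The log2 ratios of the sums stayed below 0 in 56 of 56 alternatives, 50 of them within the counting interval. Taking off the trend with transcript length gave -0.42 for all members, -0.29 for H2A, -0.28 for H2B and -0.48 for H4. Without Hist1h1c the ratio was -0.42 for all members and -0.78 for H1. The scalings moved the median of all genes from -0.0029 to 0.02 at most. No paired analysis was possible because each group holds 1 library. Leaving out a replicate was likewise not possible.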
